A study of Mus musculus with 16 samples.

Results

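The 34 genes of coagulation, fibrinogen and fibrinolysis described here were chosen by symbol from the count table of a liver RNA sequencing study in mice. A line was found for 33 of them among 40324 distinct symbols, and Klkb1 was not analysed here. They fall into 23 genes made chiefly by hepatocytes (of 24 listed) and 10 made chiefly by other liver cells. The study compared 8 livers of db/db mice given an adeno-associated virus (AAV8) encoding arcA with 8 livers of db/db mice given AAV8 encoding green fluorescent protein (GFP). All 16 samples came from the db/db strain, which is obese and diabetic for want of a functional leptin receptor, so neither group shows a lean liver. The mice were littermates injected at about 5 weeks of age and were 10 weeks old at sampling, 5 weeks after injection. The labels do not give the sex of the mice, the promoter of the vector or what arcA encodes. Whole liver was sequenced, so fewer cells of a type and less RNA per cell cannot be told apart.

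Blood clots when tissue factor meets factor VII, and a chain of proteases then ends in thrombin, which turns soluble fibrinogen into fibrin. Plasmin, made from plasminogen, dissolves fibrin, and inhibitors hold both arms in check. Hepatocytes secrete fibrinogen, most clotting proteases, plasminogen and most plasma inhibitors, whereas endothelial cells, macrophages and other cells make tissue factor, factor VIII, von Willebrand factor, thrombomodulin and the plasminogen activators. Fibrinogen is also an acute-phase protein, whose genes respond to interleukin-6 in hepatocytes.

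Libraries held 28912563 to 53520828 counts. Values are given as CPM, counts scaled to a common library total after TMM correction, and differences as the log2 fold change of arcA livers over GFP livers with its standard error (SE). A gene was called changed where its adjusted p was under 0.05. That p comes from edgeR's quasi-likelihood test, adjusted by Benjamini-Hochberg over the 14476 genes tested. Albumin (Alb), the main secreted hepatocyte protein and the check of the liver label, stood at 68675 ± 8051 CPM in arcA livers and 60727 ± 3592 CPM in GFP livers (SD, n = 8 each). The GFP 2, GFP 3 and GFP 5 libraries stood apart by the share of counts at Gm42418, a locus that overlaps ribosomal RNA sequence (11.8% to 19.4%, against 2.29% to 7.37% in the other 13). The arcA 3 and arcA 8 libraries stood apart by acute-phase transcripts. The sum of 10 such genes, listed after the data were seen, was 34199 CPM in arcA 3 and 52249 CPM in arcA 8, against 6184 to 11423 CPM in the other 6 arcA livers and 7766 to 10149 CPM in GFP livers.

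Among hepatocyte-made genes the calls were all rises, and among genes of other cells they were all falls. Of the 23 hepatocyte-made genes, 15 rose in arcA livers, none fell, and all 23 fold changes lay above 0, with a median of 0.35 (0.06 to 0.67). Of the 10 genes of other cells, none rose. Procr, Plat and Plau fell, and Plaur is the last of the 4 called lower. All 10 fold changes lay below 0, with a median of -0.65 (-1.73 to -0.04). Plaur, at the -1.73 end, entered the test through the GFP libraries, where it was high, and so had to differ. Its call therefore adds no evidence of a fall. Plaur was also called lower with no filter, from 46 counts over the arcA libraries. DESeq2 and limma voom likewise called 0 hepatocyte-made genes lower and 0 genes of other cells higher. As every fold change lay the other way, no unadjusted p under 0.05 was possible in those directions. Across all genes tested the median was 0.01, 4.27% were called higher and 6.57% were called lower. Groups did not overlap for 5 hepatocyte-made genes, higher in all 8 arcA livers than in any GFP liver (F2, F7, Proz, Plg and Hrg), where 0.566% of all genes did so. They did not overlap either for 2 genes of other cells, lower in all arcA livers (Procr and Plat), where 1.20% of all genes did so. Together the 23 hepatocyte-made genes took 2.56% ± 0.386 of all counts in arcA livers and 1.90% ± 0.175 in GFP livers, and the 10 others took 0.00208% ± 0.00055 in arcA livers and 0.00269% ± 0.000595 in GFP livers (SD, n = 8 each).

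Scaling the libraries on hepatocyte marker genes lowered the median of all genes to -0.13. These markers include Hpx, also among the acute-phase genes, which stood at 8941 CPM in arcA 3 and 11373 CPM in arcA 8. They also include Apoh, which is among the further haemostasis genes counted below. Of all genes, 0.608% were then called higher and 10.0% lower. Under it 8 of the 15 rises were still called and those of F2, F9, F10, Kng2, Serpinc1, Serpind1 and Vtn were not, with 5 falls called in place of 4. Without arcA 3 and arcA 8, 11 hepatocyte-made genes were called higher, beside 3.58% of all genes.

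**Figure D1:**
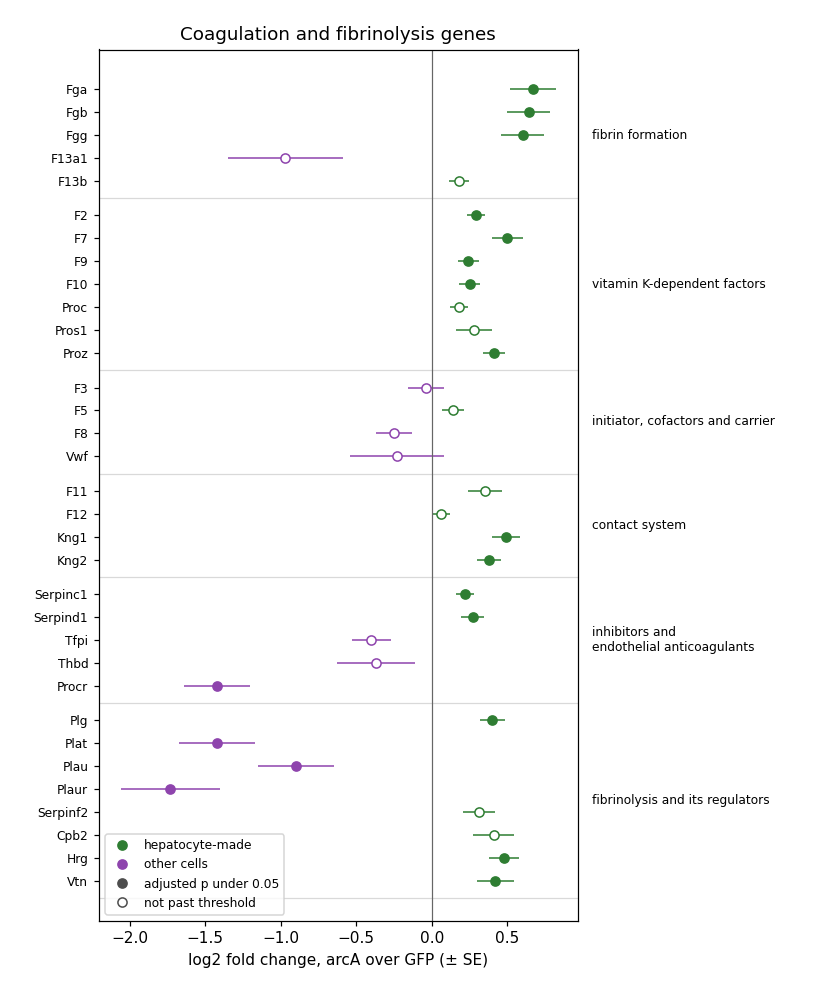
Log2 fold change of arcA over GFP livers (x axis, points with SE bars) for the 33 genes with a line, grouped by role. Green points are hepatocyte-made genes, all right of 0 (0.06 to 0.67), and purple points are genes of other cells, all left of 0 (-1.73 to -0.04); filled points passed an adjusted p of 0.05 (n = 8 livers per group).

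Fibrinogen is built from 3 chains, encoded by Fga, Fgb and Fgg, which lie side by side on chromosome 3. In GENCODE M21 coordinates of GRCm38, Fgg lies at chr3:83007724-83015049 on the plus strand, Fga at chr3:83026076-83033627 on the plus strand, and Fgb at chr3:83040141-83049863 on the minus strand. Their promoters are printed because all 3 genes rose and fibrinogen genes are textbook targets of interleukin-6. Each sequence runs 5′ to 3′ on the gene's own strand and ends before the first base of the gene in that annotation (RefSeq, GRCm38.p6). It spans chr3:83025903-83026075 (plus strand) for Fga, chr3:83049864-83050113 (minus strand) for Fgb, and chr3:83007474-83007723 (plus strand) for Fgg. Capitals mark matches, on either strand, to TTCNNNGAA (STAT), CTGGGA (the core of the interleukin-6 response element of acute-phase genes) and TTGCNNAA (C/EBP).
Fga: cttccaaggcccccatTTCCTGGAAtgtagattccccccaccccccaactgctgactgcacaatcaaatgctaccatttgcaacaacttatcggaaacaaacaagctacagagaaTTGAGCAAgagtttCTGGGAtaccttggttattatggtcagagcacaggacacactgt
Fgb: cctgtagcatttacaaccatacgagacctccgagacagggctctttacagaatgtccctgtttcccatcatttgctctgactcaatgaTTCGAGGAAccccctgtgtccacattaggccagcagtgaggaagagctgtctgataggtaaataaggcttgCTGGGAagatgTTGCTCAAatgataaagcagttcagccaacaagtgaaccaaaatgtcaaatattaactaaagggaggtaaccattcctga
Fgg: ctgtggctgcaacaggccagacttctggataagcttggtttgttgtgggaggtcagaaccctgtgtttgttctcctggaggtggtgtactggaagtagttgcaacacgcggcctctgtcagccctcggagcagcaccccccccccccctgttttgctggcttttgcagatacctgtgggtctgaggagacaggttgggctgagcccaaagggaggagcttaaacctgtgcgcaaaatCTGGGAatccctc
All 3 printed sequences hold the CTGGGA core, which 27.0% of 32851 windows of 250 bases in the promoter table also hold. The Fga and Fgb sequences each hold 1 STAT match (7.02% of windows) and 1 C/EBP match (9.56%). A promoter was matched for 27 of the 34 genes. Of the 21 hepatocyte-made genes among them, 8 windows held the CTGGGA core, 7 a C/EBP match and 4 a STAT match. Of the 6 genes of other cells, 3 held the core in any of their windows, 2 a C/EBP match, and none a STAT match. A match is a run of letters, and binding was not measured.

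All 3 fibrinogen genes rose together in arcA livers. Fga ranged between 2411 and 5193 CPM in arcA livers with a median of 2980.3, and between 1489 and 2550 CPM in GFP livers with a median of 2070.3. All 8 arcA livers lay above the GFP median, and the groups overlapped at their edges. Fga averaged 3293 ± 899 CPM in arcA livers and 2075 ± 402 CPM in GFP livers (SD, n = 8 each), a log2 change of 0.67 (SE 0.15, adjusted p = 0.00764). Fgb ranged between 2547 and 5122 CPM in arcA livers (median 3015) and between 1498 and 2808 CPM in GFP livers (median 2024), a log2 change of 0.64 (SE 0.145, adjusted p = 0.00764). Fgg ranged between 1932 and 3851 CPM in arcA livers (median 2344) and between 1221 and 2345 CPM in GFP livers (median 1641), a log2 change of 0.60 (SE 0.14, adjusted p = 0.00997). In each gene 1 library held the highest value, arcA 3 in the arcA group and GFP 3 in the GFP group, and GFP 7 was the lowest of all. Without arcA 3 and arcA 8 the log2 fold changes were 0.46 for Fga (adjusted p = 0.0143), 0.46 for Fgb (adjusted p = 0.0156) and 0.42 for Fgg (adjusted p = 0.0247). The part of the acute-phase transcripts in the rise was not tested. Fgg shares 5.49% of its exon bases with the predicted gene Gm30097 on the opposite strand. Together the 3 genes took 0.909% ± 0.235 of all counts in arcA livers and 0.588% ± 0.0896 in GFP livers (SD, n = 8 each).

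Per kilobase of exon, the fibrinogen genes and Vtn had the highest levels of the 33. The length used was the union of all annotated exons of a gene, which can exceed that of the transcript expressed, so the order depends on it. Serpinc1, with 8546 such bases, stood at 265 CPM per kilobase in arcA livers and 228 in GFP livers. In CPM per kilobase, Fgg stood at 1225 in arcA livers and 811 in GFP livers, Fga at 1094 in arcA livers and 689 in GFP livers, and Fgb at 863 in arcA livers and 554 in GFP livers, beside Vtn at 1054 in arcA livers and 786 in GFP livers. The lowest level was that of F13a1, at 0.0382 in arcA livers and 0.0745 in GFP livers. The proportions of the chains to each other differed between the groups by 0.06 or less on the log2 scale. The mean log2 ratio of Fga to Fgb counts was -0.00 in arcA livers and -0.02 in GFP livers, a difference of 0.02 (exact two-sided permutation test, p = 0.502, adjusted p = 0.502 over 6 ratios). The Fga to Fgg ratio differed by 0.06 between arcA and GFP livers (exact permutation p = 0.142, adjusted p = 0.171) and the Fgg to Fgb ratio by -0.04 (exact permutation p = 0.125, adjusted p = 0.171). Against albumin in the same library, the Fga ratio averaged -4.41 ± 0.487 on the log2 scale in arcA livers and -4.89 ± 0.306 in GFP livers (SD, n = 8 each). That difference of 0.48 had an exact permutation p of 0.0305 and an adjusted p of 0.0979, and the differences of 0.46 for Fgb and 0.42 for Fgg also had adjusted p = 0.0979. Without arcA 3 and arcA 8 the 3 differences against albumin were 0.24, 0.23 and 0.20 (exact permutation tests, adjusted p = 0.311 each).

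**Figure D2:**
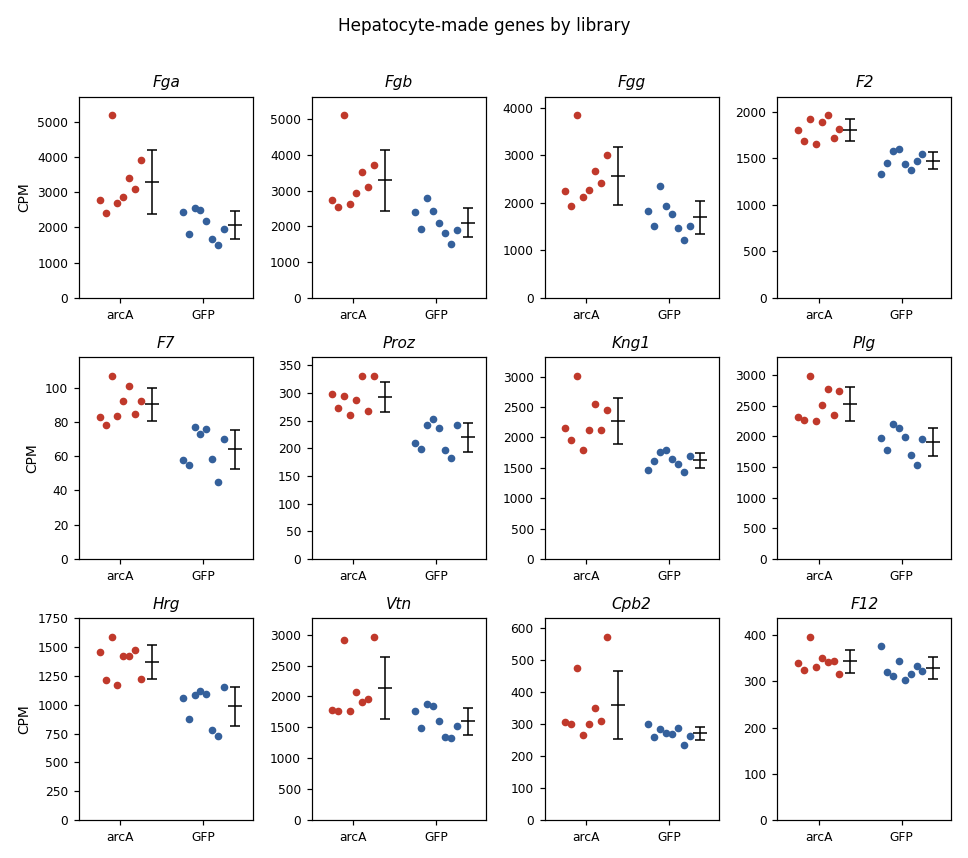
CPM in each liver (y axis, from 0) for 12 hepatocyte-made genes, with arcA livers in red and GFP livers in blue; the cross bars give mean and SD of 8 livers. The 8 arcA livers lie above all 8 GFP livers for F2, F7, Proz, Plg and Hrg, and the Fga, Fgb and Fgg values of arcA 3 (5193, 5122 and 3851 CPM) are the highest of their panels.

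Factor XIII crosslinks fibrin, and its catalytic and carrier subunits come from different cells. The carrier subunit gene F13b, made by hepatocytes, ranged between 155 and 184 CPM in arcA livers and between 125 and 180.1 CPM in GFP livers. Its log2 fold change of 0.18 did not pass (SE 0.0674, adjusted p = 0.096). The catalytic subunit gene F13a1, made by macrophages and megakaryocytes, lay between 0.0948 and 0.492 CPM in arcA livers and between 0.16 and 1.37 CPM in GFP livers. It had 84 counts over the arcA libraries and 160 over the GFP libraries, and its log2 fold change of -0.97 did not pass either (SE 0.382, adjusted p = 0.114). Without GFP 8, which held the highest value, it was -0.58 (adjusted p = 0.3).

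Vitamin K-dependent proteins need a vitamin K-driven modification of glutamate residues to bind membranes, and 5 of their 7 genes rose in arcA livers. F7, the protease that tissue factor activates, ranged between 78.1 and 107 CPM in arcA livers (median 88.4) and between 44.8 and 77.1 CPM in GFP livers (median 64.1). Every arcA liver lay above every GFP liver, with a log2 change of 0.50 (SE 0.101, adjusted p = 0.00395). Proz, whose protein Z serves as cofactor for an inhibitor of factor Xa, ranged between 260.3 and 331 CPM in arcA livers (median 291) and between 183 and 253 CPM in GFP livers (median 223), also without overlap. Its log2 fold change of 0.41 had the smallest adjusted p of the hepatocyte-made genes (SE 0.0744, adjusted p = 0.0014). F2, which encodes prothrombin, ranged between 1654 and 1969 CPM in arcA livers (median 1810.3) and between 1336 and 1600.4 CPM in GFP livers (median 1461), without overlap (0.29, SE 0.0606, adjusted p = 0.00397).

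The rises of F9 and F10 were called with all libraries but depended on single ones. F9, the protease lacking in haemophilia B, averaged 195 ± 9.40 CPM in arcA livers and 166 ± 20.9 CPM in GFP livers (SD, n = 8 each), a log2 change of 0.24 (SE 0.0691, adjusted p = 0.0311). F10, the protease that cuts prothrombin, averaged 417 ± 28.0 CPM in arcA livers and 350.3 ± 41.8 CPM in GFP livers (SD, n = 8 each), a log2 change of 0.25 (SE 0.0698, adjusted p = 0.0237). All 8 arcA livers were above the GFP median for both genes. The F9 call was lost when any 1 of 6 libraries was left out (arcA 2, arcA 5, arcA 6, GFP 2, GFP 5 or GFP 6) and the F10 call when any 1 of 3 was (arcA 6, GFP 2 or GFP 6), with log2 fold changes of 0.19 to 0.27 for F9 and 0.23 to 0.29 for F10 over all such fits. Without arcA 3 and arcA 8 their adjusted p values were 0.0859 for F9 and 0.058 for F10. The remaining genes of the class, Proc and Pros1, did not pass in edgeR. Proc, which encodes protein C, averaged 463 ± 32.4 CPM in arcA livers and 408 ± 30.8 CPM in GFP livers (SD, n = 8 each; 0.18, SE 0.0594, adjusted p = 0.0509), and passed in DESeq2 (adjusted p = 0.0185) and limma voom (adjusted p = 0.0397). Pros1, which encodes its cofactor protein S, had 40.2 to 65.1 CPM in arcA livers and 33.3 to 48.0 CPM in GFP livers (0.28, SE 0.118, adjusted p = 0.149). Its highest values were in arcA 3 and arcA 8 (65.0 and 65.1 CPM), and without them its log2 fold change was 0.12 (adjusted p = 0.474). F7, F10 and Proz are neighbours on chromosome 8.

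None of the 4 genes for the initiator, the cofactors and the carrier of factor VIII passed in edgeR, DESeq2 or limma voom, and 1 of them, F8, had an unadjusted p under 0.05 in edgeR. F5, the hepatocyte-made cofactor of factor Xa, averaged 379 ± 39.7 CPM in arcA livers and 343 ± 29.6 CPM in GFP livers (SD, n = 8 each; 0.14, SE 0.0698, adjusted p = 0.215). F3, the gene of tissue factor, ranged between 2.34 and 3.37 CPM in arcA livers and between 2.30 and 3.51 CPM in GFP livers (-0.04, SE 0.12, adjusted p = 0.895). The groups covered nearly the same range, and the direction of F3 turned to 0.00143 without GFP 6. F8, the factor VIII gene expressed in sinusoidal endothelium, ranged between 4.45 and 6.40 CPM in arcA livers and between 4.82 and 8.73 CPM in GFP livers (-0.25, SE 0.119, adjusted p = 0.2). Vwf, which encodes the carrier of factor VIII, ranged between 4.34 and 16.4 CPM in arcA livers and between 5.33 and 15.2 CPM in GFP livers (-0.23, SE 0.311, adjusted p = 0.721), and its highest value in each group was in arcA 7 and GFP 8. Its log2 fold change was -0.53 without arcA 7 and -0.05 without GFP 8.

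In the contact system, which starts clotting on charged surfaces and releases bradykinin, both kininogen genes rose. Kng1 ranged between 1795 and 3017 CPM in arcA livers (median 2139) and between 1428 and 1800.2 CPM in GFP livers (median 1631). Only the lowest arcA liver, arcA 4, reached into the GFP range, and the log2 fold change was 0.49 (SE 0.0919, adjusted p = 0.00202). Kng2 ranged between 265 and 398 CPM in arcA livers (median 297) and between 221 and 274 CPM in GFP livers (median 244; 0.38, SE 0.0784, adjusted p = 0.00415). The kininogen transcripts share 557 stretches of 50 bases, 17.2% of those of Kng1 and 19.4% of those of Kng2, so the split of reads between them is uncertain. The proteases did not pass in edgeR. F11 had 24.7 to 30.5 CPM in arcA livers and 13.6 to 29.7 CPM in GFP livers (0.35, SE 0.114, adjusted p = 0.0577), with all 8 arcA livers above the GFP median, and passed in DESeq2 (adjusted p = 0.0303) and limma voom (adjusted p = 0.0376). F12, whose protease starts the system, had the smallest difference of the hepatocyte-made genes, with 343 ± 24.4 CPM in arcA livers and 329 ± 23.4 CPM in GFP livers (SD, n = 8 each; 0.06, SE 0.0571, adjusted p = 0.542). Its direction turned to -0.08 under scaling on hepatocyte markers.

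Among inhibitors of clotting, both hepatocyte-made serpins rose by small amounts. Serpinc1, which encodes antithrombin, ranged between 2014 and 2477 CPM in arcA livers (median 2308) and between 1791 and 2098 CPM in GFP livers (median 1937; 0.22, SE 0.0605, adjusted p = 0.0248). Serpind1, which encodes heparin cofactor II, ranged between 396 and 543 CPM in arcA livers (median 452) and between 321 and 434 CPM in GFP livers (median 387; 0.27, SE 0.0741, adjusted p = 0.0253). All arcA livers lay above the GFP median for both, but the ranges overlapped. The Serpinc1 call was lost without any 1 of arcA 2, arcA 5, arcA 6, GFP 5 or GFP 8, and the Serpind1 call without any 1 of arcA 6, GFP 2, GFP 6 or GFP 7. Leaving out GFP 2, GFP 3 and GFP 5 also ended the Serpinc1 call (0.21, adjusted p = 0.0906), and leaving out arcA 3 and arcA 8 ended that of Serpind1 (0.21, adjusted p = 0.0739). Serpinc1 shares 34.4% of its exon bases with Zbtb37 on the opposite strand, whose reads cannot be told apart where counting ignores strand.

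Of the endothelial anticoagulants, Procr fell in arcA livers, whereas the negative fold changes of Tfpi and Thbd did not pass in edgeR. Procr, the endothelial receptor that presents protein C for activation, ranged between 0.246 and 0.616 CPM in arcA livers (median 0.323) and between 0.804 and 1.22 CPM in GFP livers (median 0.947). No arcA liver reached the lowest GFP liver, and the log2 fold change was -1.42 (SE 0.219, adjusted p = 0.000403). These levels rest on 123 counts over the arcA libraries and 322 over the GFP libraries. Tfpi, the inhibitor of tissue factor and factor Xa, ranged between 1.95 and 3.22 CPM in arcA livers and between 2.53 and 4.26 CPM in GFP livers. All 8 arcA livers lay below the GFP median, with a log2 change of -0.40 (SE 0.131, adjusted p = 0.056) that missed the threshold in edgeR. It passed in DESeq2 (-0.41, adjusted p = 0.0255), limma voom (-0.39, adjusted p = 0.0466), under hepatocyte marker scaling (-0.54, adjusted p = 0.0313), with the 1 CPM filter (-0.42, adjusted p = 0.0484), without arcA 3 and arcA 8 (-0.48, adjusted p = 0.0347) and without GFP 2, GFP 3 and GFP 5 (-0.51, adjusted p = 0.0446). It also passed in 4 of the 16 fits that left out 1 library (-0.46 to -0.34 over all 16). Thbd, which encodes thrombomodulin, ranged between 0.757 and 3.44 CPM in arcA livers and between 1.33 and 3.68 CPM in GFP livers (-0.37, SE 0.256, adjusted p = 0.416).

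Of the 8 genes of fibrinolysis, 3 of the 5 made by hepatocytes rose. Plat and Plau, made by other cells, fell, and Plaur was called lower after entering the test through the GFP group. Plg, which encodes plasminogen, ranged between 2255 and 2987 CPM in arcA livers (median 2429) and between 1534 and 2201 CPM in GFP livers (median 1963). The groups did not overlap, and the log2 fold change was 0.40 (SE 0.0844, adjusted p = 0.00415). Plg shares 11.3% of its exon bases with Slc22a3 on the opposite strand. Hrg, whose plasma glycoprotein binds plasminogen and heparin, ranged between 1175 and 1592 CPM in arcA livers (median 1421) and between 726 and 1154 CPM in GFP livers (median 1071), also without overlap (0.48, SE 0.0993, adjusted p = 0.00406). Vtn, which encodes vitronectin, an adhesive plasma protein, ranged between 1758 and 2970.4 CPM in arcA livers (median 1936) and between 1321 and 1880 CPM in GFP livers (median 1566; 0.42, SE 0.122, adjusted p = 0.03). Its highest values were in arcA 3 and arcA 8 (2912 and 2970.4 CPM), and without them the log2 fold change was 0.23 (adjusted p = 0.099). Leaving out 1 library ended the Vtn call in 5 of 16 fits (arcA 3, GFP 2, GFP 6, GFP 7 or GFP 8; adjusted p up to 0.0637), and so did leaving out GFP 2, GFP 3 and GFP 5 (0.45, adjusted p = 0.0778).

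Both hepatocyte-made inhibitors of fibrinolysis missed the threshold in edgeR and passed it in DESeq2 (adjusted p = 0.0394 for Serpinf2 and 0.0219 for Cpb2). In limma voom both missed it (adjusted p = 0.0878 for Serpinf2 and 0.0921 for Cpb2). Serpinf2, which encodes the plasmin inhibitor alpha-2-antiplasmin, averaged 626 ± 87.7 CPM in arcA livers and 507 ± 89.0 CPM in GFP livers (SD, n = 8 each; 0.31, SE 0.105, adjusted p = 0.066). Cpb2, whose carboxypeptidase trims plasmin-binding sites from fibrin, ranged between 266 and 574 CPM in arcA livers and between 236 and 300 CPM in GFP livers (0.41, SE 0.135, adjusted p = 0.0608). The arcA 3 and arcA 8 livers held its highest values (476 and 574 CPM), and without them its log2 fold change was 0.16 (adjusted p = 0.112).

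The plasminogen activator genes fell, and the urokinase receptor gene was called lower under a limit given below. Plat, which encodes tissue plasminogen activator, ranged between 0.151 and 0.562 CPM in arcA livers (median 0.313) and between 0.568 and 1.54 CPM in GFP livers (median 0.868). The highest arcA liver was just below the lowest GFP liver, with a log2 change of -1.42 (SE 0.252, adjusted p = 0.00124) from 113 counts over the arcA libraries and 297 over the GFP libraries. Plaur, the urokinase receptor gene of myeloid and other cells, ranged between 0.0432 and 0.279 CPM in arcA livers (median 0.119) and between 0.277 and 0.702 CPM in GFP livers (median 0.441). Only arcA 7 and GFP 2 overlapped, by a small margin, and the log2 fold change was -1.73 (SE 0.329, adjusted p = 0.0021). Plaur had 46 counts over the arcA libraries and 154 over the GFP libraries. It passed the filter on low counts (0.246 CPM in at least 8 libraries) in 1 arcA and 8 GFP libraries, so it entered the test through the GFP group, where it was high. Plau, which encodes urokinase, ranged between 0.253 and 0.588 CPM in arcA livers (median 0.433) and between 0.30 and 1.35 CPM in GFP livers (median 0.797; -0.90, SE 0.252, adjusted p = 0.0253). All arcA livers lay below the GFP median, and GFP 4 lay within the arcA range. The Plau call was lost without GFP 7 (-0.73, adjusted p = 0.0717), without arcA 3 and arcA 8 (-0.87, adjusted p = 0.0565), without GFP 2, GFP 3 and GFP 5 (-0.96, adjusted p = 0.0513) and in limma voom (-0.73, adjusted p = 0.0879).

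**Figure D3:**
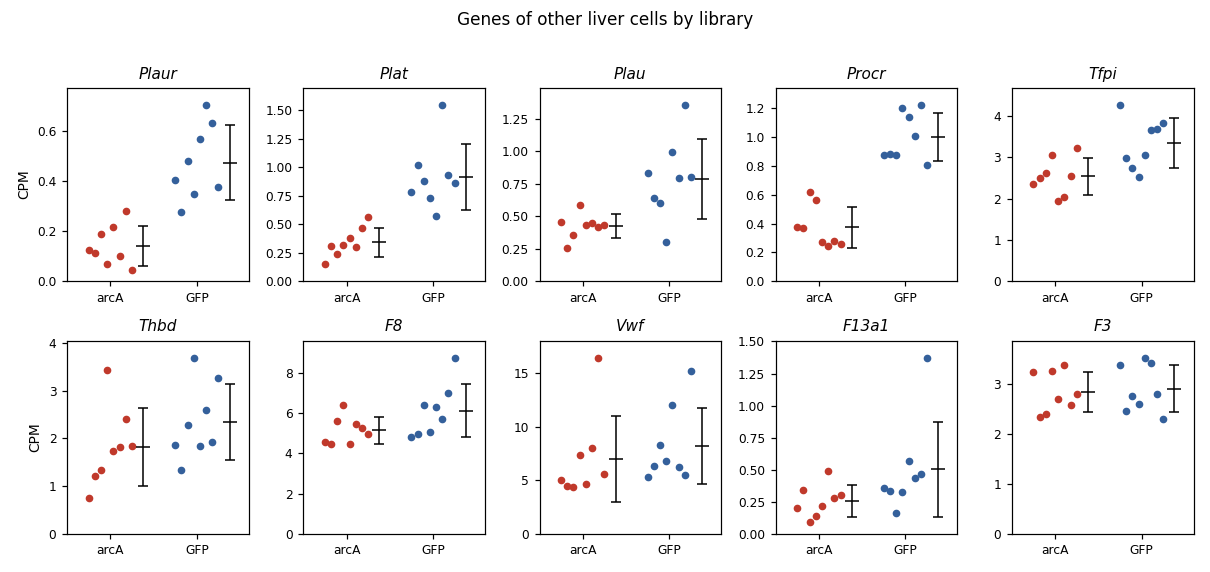
CPM in each liver (y axis, from 0) for the 10 genes of other liver cells, with arcA livers in red and GFP livers in blue; the cross bars give mean and SD of 8 livers. The groups do not overlap for Procr (arcA 0.246 to 0.616, GFP 0.804 to 1.22 CPM) or Plat (arcA 0.151 to 0.562, GFP 0.568 to 1.54 CPM), and F3 covers nearly the same range in both.

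Markers of liver cell types were counted in the same fit, in which 4.27% of all genes were called higher and 6.57% lower. Of 15 Kupffer cell and macrophage markers, 8 fell, and all 15 fold changes lay below 0. Their median log2 fold change was -0.68, and their summed level was 135 to 469 CPM in arcA livers and 328 to 524 CPM in GFP livers. Of 10 monocyte markers, 6 fell (median -1.01, sum 1083 to 1586 CPM in arcA livers and 942 to 1279 CPM in GFP livers). Nearly all of that sum was Fn1, the fibronectin gene that hepatocytes also express, and the other 9 markers summed to 5.67 to 12.9 CPM in arcA livers and 13.7 to 20.7 CPM in GFP livers. Of the 10 monocyte markers, 1 reached the filter's level in 3 arcA libraries and in at least 7 GFP libraries, so it passed mostly on GFP libraries. That marker may be among the 6 that fell. Of 15 stellate cell and fibroblast markers, 10 fell (median -0.61, sum 196 to 292 CPM in arcA livers and 310.4 to 406 CPM in GFP livers). All 15 of their fold changes lay below 0. The endothelium makes Procr, Thbd, Tfpi and Plat. Of 18 sinusoidal endothelial markers, 1 fell, a share near that of all genes, and all 18 fold changes lay below 0 (median -0.22, sum 208 to 297 CPM in arcA livers and 229 to 351 CPM in GFP livers). Of 12 vascular endothelial markers tested, 2 fell (median -0.22, sum over all 13 listed 46.7 to 69.2 CPM in arcA livers and 63.8 to 78.0 CPM in GFP livers). Without the most abundant gene of that list, the other 12 summed to 15.4 to 33.7 CPM in arcA livers and 18.3 to 31.5 CPM in GFP livers. The list includes Vwf, itself among the 33 genes. Of 5 platelet markers tested, 1 fell (median -0.17, sum over all 13 listed 8.27 to 14.7 CPM in arcA livers and 11.8 to 18.6 CPM in GFP livers). The platelet marker that fell was Clec1b, the most abundant of its list (-0.78, SE 0.185, adjusted p = 0.0112). The other 4 tested were not called, with log2 fold changes of -0.24 to -0.06, so a fall of platelet genes as a class was not shown. The 12 listed besides Clec1b summed to 5.21 to 7.44 CPM in arcA livers and 5.82 to 9.16 CPM in GFP livers. The 11 T cell markers listed summed to 0.844 to 2.82 CPM in arcA livers and 9.46 to 18.4 CPM in GFP livers. The 9 of them that were tested, with a median log2 fold change of -2.98, reached the filter's level in 0 to 5 arcA libraries and in all 8 GFP libraries, so they entered through the GFP group and their calls are not counted here. Of 18 hepatocyte markers, 2 rose (median 0.20, sum 114277 to 139719 CPM in arcA livers and 105376 to 121808 CPM in GFP livers). Of their fold changes, 16 lay above 0 and 2 below, so the direction of the hepatocyte-made genes was not particular to them. Of 4 neutrophil markers tested, 1 rose (median 0.66, sum over all 8 listed 2.06 to 16.5 CPM in arcA livers and 3.25 to 5.99 CPM in GFP livers). The gene that rose averaged 0.668 CPM in arcA livers and 0.239 CPM in GFP livers. It reached the filter's level in 2 GFP libraries, so it entered the test through the arcA group, where it was high. In edgeR, DESeq2 and limma voom 0 of 5 bile duct markers tested passed, and 0 had an unadjusted p under 0.05 in edgeR (median 0.12, sum over all 8 listed 17.7 to 47.5 CPM in arcA livers and 16.1 to 29.0 CPM in GFP livers). No marker was at 0 in every library, and the part of these markers in the changes of the 33 genes was not tested.

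Single libraries also differed across the hepatocyte-made genes. In the arcA group, arcA 3 held the highest value for 11 of the 23 genes and arcA 8 for 7, and arcA 4 held the lowest for 9 and arcA 2 for 8. In the GFP group, GFP 7 held the lowest value for 16 genes and GFP 3 the highest for 12. The median deviation of the 23 genes from the GFP mean, on the log2 scale, was 0.59 in arcA 3 and 0.52 in arcA 8, 0.15 to 0.40 in the other 6 arcA livers, and -0.24 to 0.19 in GFP livers. Saa1, a serum amyloid A gene that marks the acute phase, stood at 4811 CPM in arcA 3 and 9169.7 CPM in arcA 8, against 27.9 to 187 CPM in the other 6 arcA livers and 109 to 304 CPM in GFP livers.

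**Figure D4:**
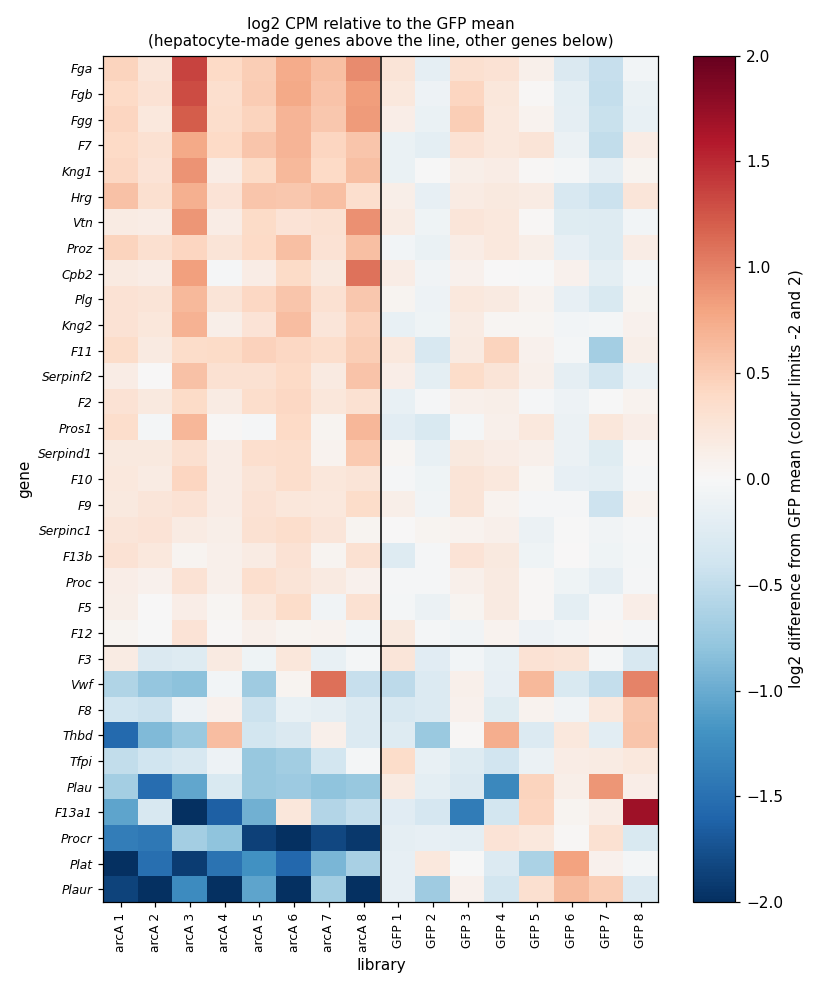
Log2 CPM of each gene (rows) in each liver (columns, arcA livers left, GFP livers right) relative to the GFP mean, with colours limited to -2 and 2. Red is above and blue below the GFP mean; arcA 3 and arcA 8 are the darkest red columns in the fibrinogen rows, and Procr, Plat and Plaur are blue in all 8 arcA livers.

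**Figure D5:**
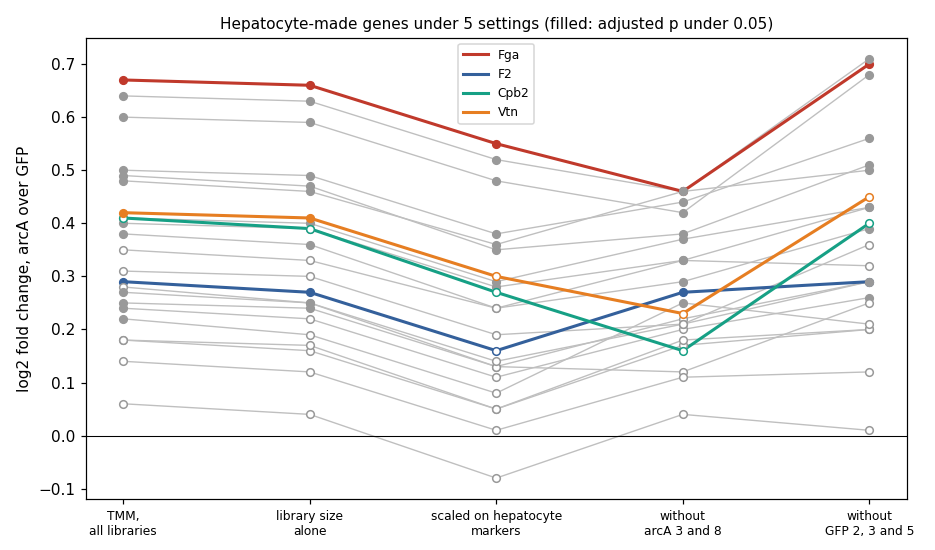
Log2 fold change of arcA over GFP livers (y axis) for the 23 hepatocyte-made genes under 5 ways of scaling or choosing libraries (x axis), with 4 genes coloured; filled points passed an adjusted p of 0.05. Fga lies at 0.67 with TMM scaling of all libraries, 0.55 with scaling on hepatocyte markers and 0.46 without arcA 3 and arcA 8, where Cpb2 lies at 0.16 and Vtn at 0.23.

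Further genes of haemostasis outside the 33 were counted in the same fit. Over 3 further lists, 9 of 60 genes tested rose, 5 fell, and the median log2 fold change was 0.06, where 4.27% of all genes were called higher and 6.57% lower. The falls lay near the share of all genes. The 9 rises became 2 with library size alone (1.76% of all genes), 1 under hepatocyte marker scaling (0.608%) and 1 without GFP 2, GFP 3 and GFP 5 (2.48%). Among other coagulation and fibrinolysis genes, 7 of 31 rose. They included Pzp, a broad protease inhibitor related to alpha-2-macroglobulin (3664 ± 881 CPM in arcA livers and 2621 ± 197 CPM in GFP livers, 0.48, SE 0.113, adjusted p = 0.00897), and Masp2, a protease of the lectin pathway (144 ± 5.92 CPM in arcA livers and 124 ± 8.07 CPM in GFP livers, 0.21, SE 0.0472, adjusted p = 0.00689; SD, n = 8 each). The hepatocyte protease genes Hgfac (0.26, adjusted p = 0.0098) and Hpn (0.24, adjusted p = 0.0109) also rose. In the same list 5 genes fell, of which 4 are described. Fgl2, a membrane prothrombinase of macrophages and endothelium, averaged 1.81 ± 0.761 CPM in arcA livers and 4.08 ± 1.22 CPM in GFP livers (SD, n = 8 each; -1.18, SE 0.234, adjusted p = 0.00327). Also lower, and named after their values were seen, were Hgf (-0.61, adjusted p = 0.0122), Anxa5 (-0.51, adjusted p = 0.0166) and Serpine2 (-0.94, adjusted p = 0.0445).

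Of 8 genes of the vitamin K cycle and factor secretion, Ggcx rose, the carboxylase that modifies the vitamin K-dependent proteins, with 56.7 ± 5.93 CPM in arcA livers and 46.7 ± 4.54 CPM in GFP livers (SD, n = 8 each; 0.28, SE 0.0678, adjusted p = 0.0114). The median log2 fold change was 0.04 in that list, and 0.03 over 21 genes for regulators of hepatocyte factor genes.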

How the data were processed

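The authors deposited 1 table of raw counts per gene symbol, with 1 column for each of 16 libraries. Per the labels' protocols, total RNA was isolated from liver with Trizol and oligo-dT was used. Per the submitters' processing notes, bcl2fastq, STAR 2.5.1a and featureCounts 1.4.6-p5 (Subread) were used with GRCm38. Annotation release, strand setting and treatment of mates: not given in the sources used here. Among counts from 1 to 20, 69.8% were even, so fragments behind a count are uncertain. Of 40757 lines, 348 exact copies were removed and 85 repeated symbols were summed. Within groups, library pairs differed by a chi-square of at least 20.0 per gene, so each library is 1 sample. Nothing in the labels ties each library to its own mouse beyond its title, so p-values measure the spread between these samples, which may be partly technical.

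Groups came from the sample titles. The test was edgeR 4.0.16 (R 4.3.3): TMM scaling, filterByExpr, robust quasi-likelihood F test with the group as its only term, and Benjamini-Hochberg adjustment over 14476 genes. All 33 genes with a line passed the filter. The pipeline was tested on simulated counts. Ratios of fibrinogen genes were tested by exact permutation over 12870 arrangements. Exon lengths, coordinates and overlaps came from GENCODE M21, and promoters from RefSeq (GRCm38.p6). The text names every member with its values, up to 6 called genes with the smallest adjusted p of each further list, and albumin. Saa1, Fn1, Clec1b, Hpx, Apoh, Hgf, Anxa5, Serpine2, Gm42418 and genes sharing exons with members were named outside that rule. Some genes taken by the rule are not reported here. The members, lists, tests and alternatives were chosen with earlier results of these data known. Alternatives were RLE scaling, library size alone, hepatocyte marker scaling, no filter, 8 or more libraries over 1 CPM, DESeq2 1.42.0, voom of limma 3.58.1 with quality weights, a replicate block, each library left out, and fits without arcA 3 and arcA 8 or without GFP 2, GFP 3 and GFP 5.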

Additional observations from a re-analysis of the deposited data

Results flagged for a closer look

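In 5 of 66 groups of 8 libraries (33 genes in arcA and GFP livers), 1 library stood far from the others, the share of the group's range taken by its gap to the nearest value being above Dixon's critical value for 8 samples. Chance flags about 1 in 20 groups. Fgb stood at 5122 CPM in arcA 3, and the next arcA liver had 3719 CPM. F12 stood at 397 CPM in arcA 3, and the next arcA liver had 350.3 CPM. Vwf stood at 16.4 CPM in arcA 7, and the next arcA liver had 7.98 CPM. F13a1 stood at 1.37 CPM in GFP 8, and the next GFP liver had 0.568 CPM. Plat stood at 1.54 CPM in GFP 6, and the next GFP liver had 1.02 CPM.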

How the results depend on the processing

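With 15 members called higher and 4 lower, hepatocyte marker scaling gave 8 higher, beside 0.608% of all genes. A filter of 1 CPM gave 1 lower (6.51% of all genes it tests) and a median of -0.27 for the genes of other cells, since it tests 5 of those 10 genes. For other haemostasis genes, 9 rises became 2 with library size alone, 1 with hepatocyte marker scaling and 1 without GFP 2, GFP 3 and GFP 5. Their 5 falls became 3 with the 1 CPM filter (6.51% of all genes) and 3 without arcA 3 and arcA 8 (7.48%). The cause of these moves was not tested. Leaving out each library gave 11 to 17 higher and 3 to 5 lower members, medians of 0.29 to 0.37 and -0.75 to -0.48, and 6 to 10 rises and 4 to 6 falls of other haemostasis genes. Of all genes, 2.67% to 4.38% were called higher and 5.04% to 7.18% lower in these fits. Such fits moved the differences against albumin to 0.37 to 0.56 for Fga, 0.35 to 0.53 for Fgb and 0.32 to 0.49 for Fgg, all 3 passing without arcA 2 (adjusted p = 0.0438) or GFP 3 (0.0441). The Fga to Fgb ratio turned to -0.00114 without GFP 2, GFP 3 and GFP 5. F3 turned to 0.00143 without GFP 6 (lowest -0.09), and F12 to -0.08 under hepatocyte marker scaling. Replicate numbers did not pair the samples (correlations of same-numbered libraries -0.0473 to 0.134, only number 2 matching itself best). With the replicate block 16 members were higher and 3 lower, beside 4.09% and 6.05% of all genes. In that fit F11 (adjusted p = 0.0269) and Serpinf2 (0.032) passed, and Serpinc1 (0.077) and Plau (0.0701) did not. Depth limits Plaur, F13a1, Plat, Procr and Plau, which rest on 46 to 140 counts over the arcA libraries.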
